A study of Homo sapiens with 26 samples.

Results

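The RAB genes are the largest branch of the RAS superfamily of small GTPases, and they were taken here as the protein-coding genes whose symbol is RAB, a number and at most 1 letter, with at least 64 reads on average in the 7 RNA-seq total inputs. Of 63 such genes 51 met this minimum, out of 12249 protein-coding genes that met it in the series. The other 12 (RAB4B, RAB6C, RAB7B, RAB17, RAB19, RAB25, RAB33A, RAB37, RAB41, RAB42, RAB43 and RAB44) lay under the minimum and were not described further. The study used LOCL-TL, in which HEK293T cells, a human embryonic kidney line, carry an AviTag on the endogenous ribosomal protein RPL29 and a biotin ligase, LOV-BirA, that works only under blue light. Ribosomes next to the ligase are biotinylated in living cells, pulled down on streptavidin beads and compared with the total input of the same lysate, so the quantity described throughout is the log2 ratio of pulldown to total.

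Ribosome footprints were sequenced with the ligase at 3 locations, with 2 lysates each: at the endoplasmic reticulum (ER) as a Sec61β fusion driven by the SFFV promoter, at the outer mitochondrial membrane (OMM) through the tail anchor of OMP25 driven by the EF1α promoter, and free in the cytosol. All these cells had received cycloheximide (CHX), which holds ribosomes on their mRNA. Whole mRNAs were sequenced after pulldown with the OMM ligase in 4 groups: cells with a negative control guide RNA (called WT), lines null for AKAP1 or for LARP4, each group with 2 lysates, and cells labelled without CHX with 1 lysate. The labels name only the last of these groups as without CHX, and do not state the CHX treatment of WT or of the null lines. By the study's methods, labelling without CHX was also shorter. The ligase lines were sorted polyclonal pools, whereas each null line was 1 clone, so a knockout and its clone cannot be told apart. The labels do not say that the 2 lysates of a group came from separate cultures, so the p-values measure the spread between lysates, which may be technical. That spread was estimated over all groups of a fit together, not from the 2 lysates of 1 group. The study calls the OMM footprint lysates biological replicates.

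RAB proteins switch between a GDP-bound form, kept soluble by a carrier protein, and a GTP-bound form that sits on one particular membrane and recruits effectors for vesicle budding, transport and fusion. They have no signal peptide and are made as soluble proteins. Their membrane anchor is 1 or 2 geranylgeranyl lipids that RAB geranylgeranyl transferase joins to cysteines at the very end of the finished chain, helped by the escort proteins CHM and CHML.

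That tail could be read in the canonical transcripts. The 51 proteins had a median length of 216 residues, from 194 to 340, and 41 of them had 200 to 250 residues. None of the 51 held a window of 19 residues with a mean hydropathy of 1.6 or more, the usual sign of a membrane-spanning segment. A cysteine codon occurred at least 2 times among the last 4 codons in 36 members and 1 time in 14, and RAB6D had none. The last 30 bases of the coding sequence, stop codon included, are shown 5′ to 3′ for the members on which the results turn, from GENCODE 44 on GRCh38, with the cysteine codons among the last 4 in capitals.
RAB4A: gccccgaacgctcaggagTGTggtTGTtag
RAB10: gtgacaggctggaagagcaaaTGCTGCtga
RAB9A: aagcccaagcctagctcatctTGCTGTtga
RAB34: agcaagaagaagcccacaTGTTGCccatga
RAB39A: gtaaagcccaggaaagaaTGCttcTGCtga
RAB8A: agcagctttttccgaTGTgttcttctgtga
RAB8B: accagtttctttcgtTGCtcgctactttga
RAB4A and RAB39A end in Cys-X-Cys, RAB10 and RAB9A in Cys-Cys, and RAB8A and RAB8B in a single cysteine followed by 3 residues. RAB34 has its pair of cysteines 1 residue before the end. In GRCh38 the genes lie at chr1:229271062-229305894 on the plus strand (RAB4A), chr2:26034084-26137454 on the plus strand (RAB10), chrX:13689128-13710504 on the plus strand (RAB9A) and chr17:28714281-28718429 on the minus strand (RAB34).

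The footprint libraries held 1025114 to 19539527 estimated counts on coding sequences, the smallest being the first OMM pulldown, and the RNA-seq libraries 38347615 to 100840544 counts on genes. RAB genes took 0.125 to 0.170% of the footprints and 0.212 to 0.274% of the RNA-seq counts. In the footprint files some coding positions are not counted, among them those to which reads cannot align uniquely. The median member kept 74.2% of its coding bases, against 86.4% for the protein-coding genes listed alone, while 14 of the 47 members listed alone kept under 50%, next to 28.2% of those genes. RAB34 and RAB6D kept 0 bases, for reasons not tested, and RAB5C, RAB9B, RAB13 and RAB24 were listed only together with an overlapping gene. With a minimum of 64 footprints in both total inputs, 29 members could be tested at the ER, 25 at the OMM and 24 in the cytosol, and 22 at all 3. The labels held for the knockouts: AKAP1 mRNA was at 32.2 and 20.3 CPM (counts scaled to the library total) in the total inputs of the AKAP1 null line against 115 and 119 CPM in WT, and LARP4 mRNA at 79.3 and 74.0 CPM in the LARP4 null line against 225 and 231 CPM. The 6 HEK293T markers examined had medians of 6.95 (PAX2) to 498 (VIM) CPM over the total inputs, and of the markers of other cells PTPRC and ALB reached at most 0.0261 and 0.156 CPM while COL1A1 ranged from 7.16 to 23.1 CPM. At the ER 20 of 20 secretory and membrane genes tested were higher (median 2.06), where 19.8% of all genes were. At the OMM 6 of 8 genes for long mitochondrial proteins were higher (median 2.58), where 17% of all genes were. These lists were chosen with earlier results of these data known, and no such check is given for the cytosol.

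The levels of the members in the total inputs spread over more than 2 orders of magnitude. Normalised to gene length and library total (FPKM, computed from the counts), RAB10 had the highest mRNA level, 46.3 to 55.8 over the 7 total inputs with a median of 51.7. RAB1B (49.8), RAB1A (38.5), RAB11A (31.9) and RAB7A (30.4) followed by median, and the ranges of RAB10 and RAB1B overlapped. RAB1A and RAB1B act in transport from the ER to the Golgi, RAB11A on recycling endosomes and RAB7A on late endosomes. RAB27B, which serves regulated secretion, was lowest with a median of 0.215 FPKM, and 5 members lay under 1 FPKM. Footprints per kilobase of counted coding sequence put RAB11A (median 262 RPKM, range 205 to 307) and RAB1B (243 RPKM, range 224 to 261) first, with overlapping ranges, and RAB10 eighth with 66.8 RPKM.

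At the ER, 2 members were higher in the pulldown, RAB4A and RAB10, and 21 of 29 were lower. Of all genes tested 19.8% were called higher and 72% lower, and the median gene lay at -0.68, so the shares of the family (2 and 21 of 29) have to be read against a background in which most genes were lower; the median member lay at -0.55. In these bulk libraries, a smaller share of an mRNA's ribosomes at the membrane in every cell and a larger share in fewer cells cannot be told apart. RAB4A, which returns cargo from early endosomes to the surface, had 99.5 and 102 CPM in the 2 total inputs and 128 and 135 CPM in the pulldowns. Both pulldowns lay above both totals. The log2 ratio was 0.39 ± 0.10 (SE; adjusted p = 0.00185, edgeR), which is 1.07 above the median gene and at the 80.6th percentile of all genes tested. RAB10, a RAB of ER tubules, the Golgi and exocytosis, had 92.1 and 116 CPM in the totals and 112 and 151 CPM in the pulldowns. Within each lysate the pulldown was higher, but the ranges of totals and pulldowns overlapped. Its log2 ratio was 0.33 ± 0.11 (adjusted p = 0.00952), 1.01 above the median gene. This call was lost when either lysate was left out (0.39 without the first and 0.28 without the second) and with footprints counted over all exon positions (0.06). These 29 members are those that reached 64 footprints. With a minimum of 10 footprints 39 members were tested, 3 higher and 25 lower, and the highest value was 0.78, next to 0.39 for RAB4A among the 29. Of 9987 genes in all, 2224 were then higher and 6314 lower. Over all exon positions 3 of 37 members were higher and 26 lower, the highest at 0.77 (20.9 and 72.0% of all genes).

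The largest falls at the ER were those of RAB11A, RAB6A, RAB9A, RAB21 and RAB3B. RAB11A had 132 and 149 CPM in the totals and 58.0 and 84.5 CPM in the pulldowns, with no overlap, and a log2 ratio of -1.01 ± 0.11 (adjusted p = 1.39e-07). It was the 1 member called lower both with library totals and with TMM. The other 4 lay between -0.77 and -0.87, within 0.19 of the median gene. When the libraries were scaled by TMM, which centres the bulk of genes near 0 and moved the median gene by 0.65, 9 members were higher (29.2% of all genes) and 1 lower (25.4% of all genes), and 11 of the 21 members called lower turned to values above 0. With library totals, 20 of 29 members lay above the median gene. Leaving out the first ER lysate gave 10 calls in place of 23, 1 higher and 9 lower.

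At the OMM the footprints of RAB4A were again higher, and those of RAB6A, RAB36, RAB14, RAB1A and RAB10 were lower. This was 1 of 25 members higher against 17% of all genes and 5 of 25 lower against 46%, with a median of -0.27 for the family and -0.38 for all genes. RAB4A had 74.2 and 109 CPM in the totals and 121 and 160 CPM in the pulldowns, both pulldowns above both totals. Its log2 ratio of 0.62 ± 0.12 (adjusted p = 0.000309) stood at the 88.2nd percentile. RAB14, which works between the Golgi and endosomes, had 92.9 and 121 CPM in the totals and 49.8 and 77.4 CPM in the pulldowns, without overlap, giving -0.74 ± 0.14 (adjusted p = 0.000238). RAB6A, a RAB of the Golgi, had the lowest log2 ratio, -0.97 ± 0.29 (adjusted p = 0.00715), but its lysates gave -0.39 and -1.24 and it kept 37.0% of its coding bases. With TMM scaling 6 members were higher (25.8% of all genes) and 1 lower (24.4%), and RAB4A and RAB14 were the members called the same way under both scalings. Leaving out the second OMM lysate gave 3 calls in place of 6.

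In the cytosol 0 of 24 members were called by edgeR, where 2.02% of all genes were higher and 5.96% lower; 1 member had an unadjusted p under 0.05, and DESeq2 called 0. Leaving out either cytosol lysate gave 1 call. The members lay between -0.31 and 0.28 with a median of -0.10, next to 0.02 for all genes. RAB4A was at 0.19 ± 0.11 and RAB10 at -0.18 ± 0.12 there. Both cytosol lysates of RAB4A lay above 0 (0.08 and 0.32), and RAB4A was not called different between the ER and the cytosol.

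**Figure D1:**
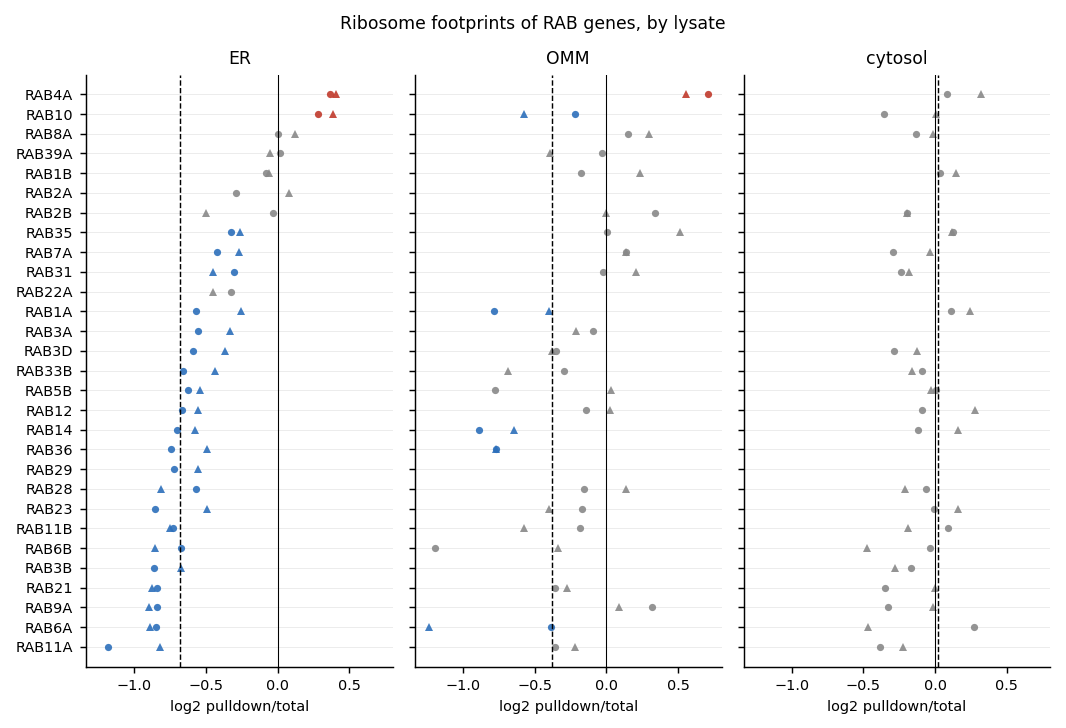
The log2 ratio of pulldown to total footprints (x axis) is drawn for the 29 RAB genes tested at the ER (y axis, ordered by the ER value) in 3 panels, circles for lysate 1 and triangles for lysate 2, red for genes called higher, blue for genes called lower and grey for the rest; the dashed line is the median of all genes tested (-0.68, -0.38 and 0.02). RAB4A sits to the right of 0 in all 3 panels and is coloured in the membrane panels only. RAB10 does so with both lysates only in the ER panel, and in the cytosol panel no gene is coloured.

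The difference between locations was tested itself, which compares separate cell lines. RAB10 was the 1 member higher at the ER than at the OMM (18.6% of all genes were), by 0.77 ± 0.18 (adjusted p = 0.0016), with log2 ratios of 0.28 and 0.38 in the ER lysates and -0.22 and -0.58 in the OMM lysates. The 2 pairs did not overlap, TMM scaling kept the call (1.10), and so did footprints over all exon positions (0.53); without the second OMM lysate the value was 0.56 and the call was lost. It was also the 1 member higher at the ER than in the cytosol (19.6% of all genes), by 0.52 ± 0.16 (adjusted p = 0.00705), a call lost without the second ER lysate (0.47) or the first cytosol lysate (0.33). RAB9A, which carries receptors from late endosomes to the Golgi, showed the opposite pattern. Its log2 ratios were -0.84 and -0.90 at the ER and 0.32 and 0.09 at the OMM, a difference of -1.03 ± 0.23 (adjusted p = 0.00101) that was called under both scalings and without any 1 lysate (-0.95 to -1.16). In all, 7 of 25 members were lower at the ER than at the OMM (31.1% of all genes): RAB9A, RAB28 (-0.73), RAB11A (-0.72), RAB35 (-0.60), RAB12 (-0.57), RAB21 (-0.55) and RAB7A (-0.48). With TMM scaling RAB9A alone of these 7 was called, and leaving out single lysates gave 1 to 4 calls in both directions together. TMM scaling also turned the split of all genes, to 1512 higher and 949 lower.

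Between the ER and the cytosol 12 of 23 members were lower at the ER (62.6% of all genes), and 0 of these calls remained with TMM scaling, which gave 6 members higher and 0 lower and, of all genes, 1969 higher and 1373 lower. Between the OMM and the cytosol RAB4A was higher at the OMM by 0.42 ± 0.16 (adjusted p = 0.0327; 16.6% of all genes were higher), and the call was lost without either OMM lysate (0.36 and 0.51) or without the first cytosol lysate (0.29). RAB6A (-0.90), RAB14 (-0.75) and RAB1A (-0.73) were lower, 3 of 22 members against 39.7% of all genes; none of the 3 passed with TMM scaling, where they lay at -0.58, -0.43 and -0.41 and 1585 genes in all were higher and 1346 lower. For RAB6A 1 of the 4 pairings of lysates went the other way.

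Sorted by the compartment on which the proteins work, 0 or 1 member was higher at the ER in each group. RAB10, described above as also working on ER tubules and the Golgi, was not counted among the RABs of the ER and Golgi. Of the RABs of the ER and Golgi 0 of 7 tested were higher and 4 lower (median -0.41), of early endosomes 1 and 3 of 5 (median -0.38), of recycling and polarized traffic 1 and 5 of 7 (median -0.62), of late endosomes and lysosomes 0 and 4 of 4 (median -0.65), of regulated secretion 0 and 3 of 3 (median -0.49) and of the cilium 0 and 2 of 2 (median -0.68), where 19.8% of all genes were higher and 72% lower (median -0.68). At the OMM the corresponding medians were -0.56, -0.08, -0.28, 0.13, -0.30 and -0.15, next to -0.38 for all genes. With TMM scaling 0 to 3 members of each group were higher at the ER and 0 or 1 lower, where 29.2 and 25.4% of all genes were. RAB1A and RAB1B, which nearly share a sequence and act on the ER itself, lay at -0.41 and -0.07 at the ER, with 63.9 and 35.3% of their coding bases counted; the sign of RAB1A turned with TMM scaling (0.23). RAB2A and RAB2B, also of the early secretory pathway, lay at -0.13 and -0.24, and neither was called.

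Another family of small GTPases gave a scale for these values. Of the ARF family, whose members are anchored by a myristoyl group or an amphipathic helix at the other end of the chain, 10 of 15 tested were higher at the ER and 5 lower (median 0.80; 11 higher and 0 lower with TMM scaling). Of all genes tested at the ER 19.8% were higher and 72% lower, or 29.2 and 25.4% with TMM scaling. At the OMM the ARF genes had 4 higher and 3 lower of 13, where 17% of all genes were higher and 46% lower. These counts are descriptions, with no test of the ARF genes against the RAB genes.

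The genes of proteins that serve the RABs gave more lower than higher calls at both membranes with library totals, as did all genes (72 and 46% lower). Of the genes for prenylation and carriers, CHM (-1.09), GDI2 (-0.84) and RABIF (-0.60) were lower at the ER, and RABGGTB, the catalytic subunit of the transferase, lay at 0.08. At the OMM CHM (-0.79), RABGGTA (-0.79), GDI2 (-0.77) and RABGGTB (-0.45) were lower, whereas RABIF, a chaperone for nucleotide-free RABs, was higher (0.47 ± 0.17, adjusted p = 0.0247). Exchange factors, which load GTP, had 0 of 17 higher and 11 lower at the ER, led by DENND4A (-1.42) and ANKRD27 (-1.24). GTPase-activating proteins had 1 higher and 14 lower of 18, TBC1D4 being lowest (-1.39) and TBC1D9B the one higher (0.48). Effectors had 0 higher and 23 lower of 24, with RAB11FIP1 (-1.28) and RAB11FIP4 (-1.28) lowest. Their medians at the ER (-0.79, -0.64 and -0.88) lay around that of all genes (-0.68), and at the OMM 0 of 17 exchange factors were higher and 9 lower, 0 and 9 of 16 GTPase-activating proteins and 0 and 10 of 21 effectors. At the ER TMM scaling gave 3 higher and 7 lower exchange factors, 3 and 1 GTPase-activating proteins and 1 and 7 effectors.

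Whole mRNAs pulled down at the OMM of WT cells were tested for all 51 members, since the minimum that defined the family was also the minimum of this test. RAB34, RAB32, RAB4A, RAB13, RAB9A, RAB1B and RAB8A were higher, 7 of 51 against 19.4% of all genes, and 24 were lower against 45.8%. The family's median was -0.20 and that of all genes -0.30. RAB34, a RAB of the Golgi and of ciliary membranes, led with 21.2 and 20.2 CPM in the totals and 47.3 and 52.4 CPM in the pulldowns. The pulldowns were more than 2-fold above the totals in both lysates, and the log2 ratio was 1.27 ± 0.11 (adjusted p = 3.78e-05), at the 96.1st percentile. RAB32, an anchoring protein for protein kinase A at mitochondria, had 3.29 and 2.98 CPM in the totals and 5.07 and 5.72 CPM in the pulldowns and rose by 0.78 ± 0.17 (adjusted p = 0.00423), a call lost without the second WT lysate (0.62). RAB4A had 76.3 and 98.1 CPM in the totals and 117 and 158 CPM in the pulldowns, a log2 ratio of 0.65 ± 0.10 (adjusted p = 0.000746). RAB13, a RAB of cell junctions whose gene overlaps JTB, so that reads of the 2 may mix, followed with 0.64 ± 0.11 (adjusted p = 0.00102) and RAB9A with 0.52 ± 0.11 (adjusted p = 0.00337). The calls of RAB9A, RAB8A and RAB1B were lost without either WT lysate. All 7 were also higher with TMM scaling, which gave 14 members higher (30.6% of all genes) and 11 lower (26.9%).

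The lowest members were RAB27B, RAB40A, RAB3B, RAB22A and RAB30. RAB22A, a RAB of early endosomes, had 106 and 77.8 CPM in the totals and 46.0 and 36.7 CPM in the pulldowns, with no overlap, and a log2 ratio of -1.14 ± 0.09 (adjusted p = 2.53e-05). RAB3B, of regulated secretion, reached -1.23 ± 0.13 (adjusted p = 8.38e-05), although its totals, 60.4 and 29.7 CPM, differed more than 2-fold between lysates. RAB30, of the Golgi, lay at -1.01 ± 0.14 (adjusted p = 0.00027). RAB27B (-1.46 ± 0.40, adjusted p = 0.011) and RAB40A (-1.37 ± 0.34, adjusted p = 0.00678) rested on few counts, 80 and 17 in the totals and 48 and 4 in the pulldowns for RAB27B. Their calls were lost without the second WT lysate (RAB27B, -1.20) or the first (RAB40A, -1.08). Without the first or the second WT lysate 20 or 18 members were called in place of 31.

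**Figure D2:**
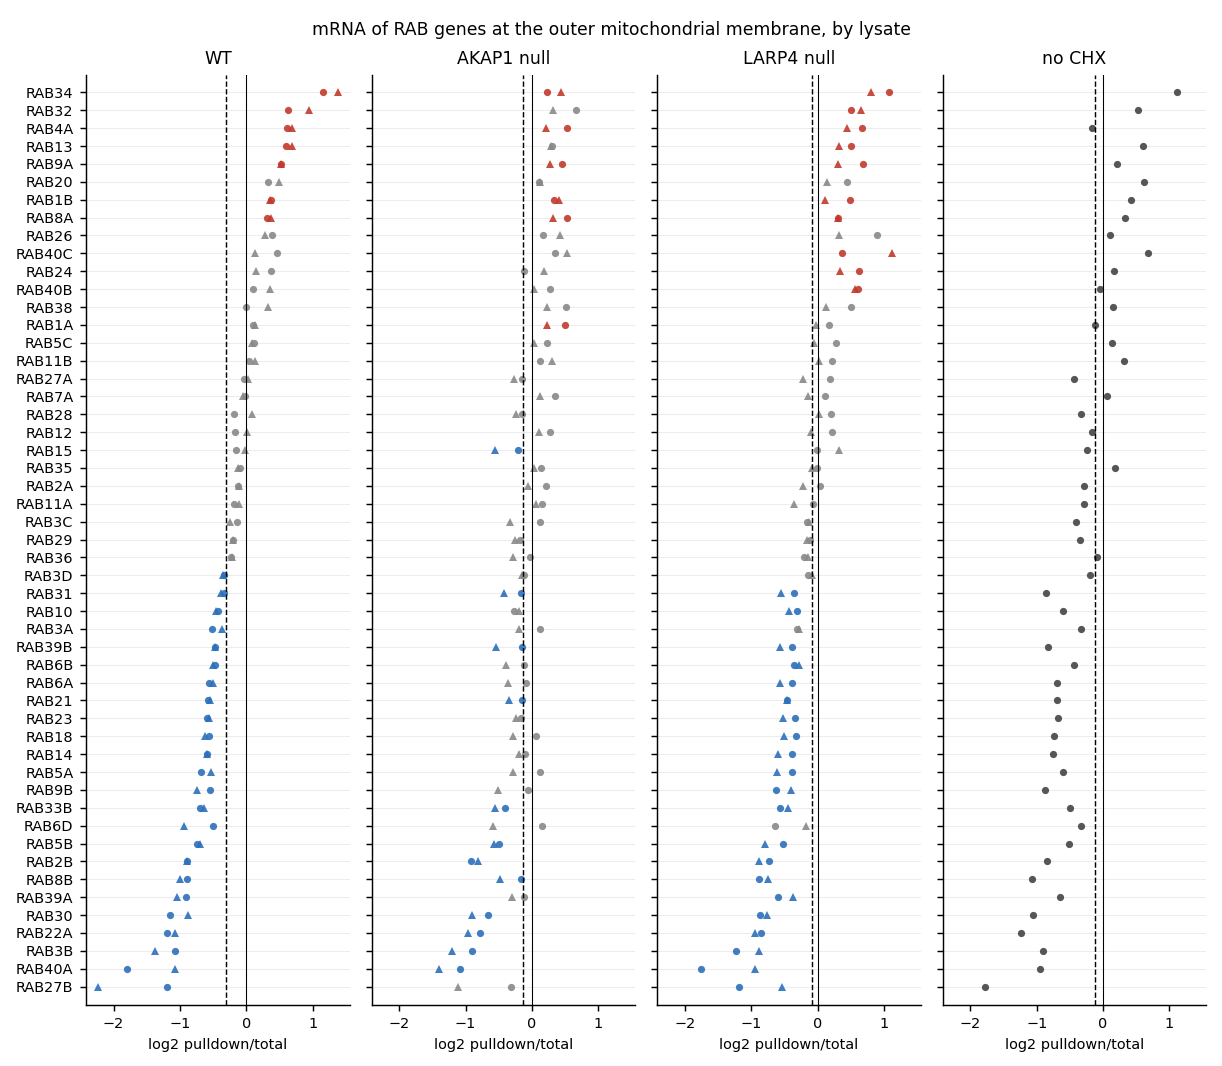
The log2 ratio of pulldown to total mRNA at the OMM (x axis) is drawn for 51 RAB genes (y axis, ordered by the WT value) in WT, AKAP1 null, LARP4 null and no CHX cells, with circles for lysate 1 and triangles for lysate 2, red and blue for genes called higher and lower and grey for the rest; the no CHX panel has 1 lysate and no test, and the dashed lines mark the median of all genes. The order of WT is largely kept in the other panels, and RAB4A is the point that leaves it most in the last one.

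Members differed in the length of the transcript after the stop codon, the 3′ untranslated region (UTR), and this length went with the WT ratio. Pearson's r between the log10 length and the log2 ratio was -0.63 and Spearman's rho -0.63 over the 51 members, and -0.48 and -0.50 over 12213 protein-coding genes; points are genes of the same libraries and are not independent replicates, so no p is given. Among the 26 members with a 3′ UTR of at most 2356 nt, the median length, 7 were higher and 6 lower (median 0.11). Among the 25 longer ones 0 were higher and 18 lower (median -0.56). The same division of all protein-coding genes gave 27.8% higher and 34.3% lower (median -0.09) at or under that length and 5.41% higher and 73.3% lower (median -0.62) over it, so the members' shares lay near those of all genes. The length of the whole transcript went with the ratio too, with r of -0.61 over the members and -0.69 over all protein-coding genes. Coding length, which went with the ratio over all protein-coding genes (r = -0.56), varied little in the family and did not go with it (r = 0.12). RAB32, RAB34 and RAB13, the members with the shortest 3′ UTRs (348, 359 and 449 nt), were 3 of the 4 highest, whereas RAB40A (793 nt), RAB39A (1110 nt) and RAB3A (686 nt) were lower with short ones. The part of length in these ratios was not tested further.

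**Figure D3:**
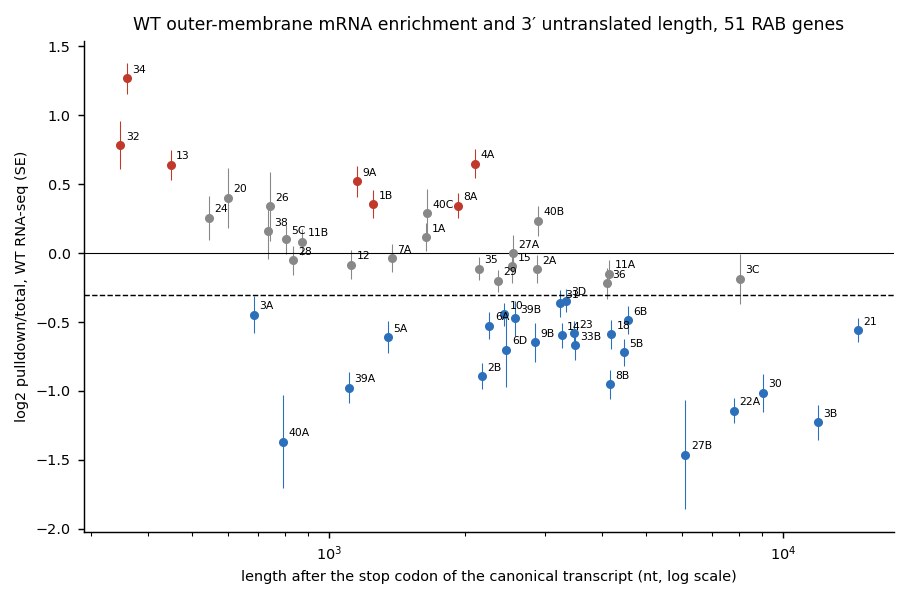
The WT log2 ratio of pulldown to total mRNA with its SE (y axis) is drawn against the 3′ UTR length of the canonical transcript in nt (x axis, log scale) for 51 RAB genes, labelled without the letters RAB; red and blue mark genes called higher and lower, and the dashed line is the median of all genes (-0.30). The 7 red points lie at 2101 nt or below, and the 4 genes RAB3B, RAB22A, RAB30 and RAB27B with long 3′ UTRs lie below -1.

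Close relatives did not always go together. Among the 11 groups of members that share a number, 27 members in all, RAB8A (0.34) and RAB8B (-0.95) differed by 1.30, RAB9A (0.52) and RAB9B (-0.65) by 1.17, and RAB27A (0.00) and RAB27B by 1.46. RAB3A, RAB3B, RAB3C and RAB3D were all below 0 (-0.45, -1.23, -0.19 and -0.35), and RAB6A and RAB6B lay at -0.53 and -0.49. In 13 of the 22 pairs within groups the member with the shorter 3′ UTR had the higher ratio. RAB2A and RAB2B, and RAB39A and RAB39B, went the other way. In the larger groups it held for 3 of 6 pairs of RAB3, 1 of 3 of RAB6, 1 of 3 of RAB40 and 3 of 3 of RAB5. Reads of near-identical stretches cannot be assigned with certainty between RAB1A and RAB1B, RAB11A and RAB11B, RAB6A and RAB6D, or among the RAB40 genes, so their values are uncertain, and the difference within a pair was not tested.

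Footprints and mRNA at the OMM came from separate libraries. Over the 25 members tested in both, 18 had the same sign (72.0%; 82.9% over all genes), r was 0.52 and rho 0.45, against 0.78 and 0.72 over 6722 genes. RAB4A was higher in both. RAB6A, RAB14 and RAB10 were lower in both, and RAB1A and RAB36 were lower in footprints only, with mRNA ratios of 0.12 and -0.22. RAB34 has no counted coding base, so its footprints were also counted over all exon positions, a choice made after seeing the data. Those gave 308 and 282 footprints in the OMM totals and 88.0 and 218 in the pulldowns, and after scaling to each library's total the log2 ratios were 0.51 and 0.74. At the ER they were -0.51 and -0.39 and in the cytosol 0.11 and 0.07. RAB34 was then called higher at the OMM (0.64) and lower at the ER than at the OMM (-1.10), although these counts include positions outside the coding sequence.

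In the AKAP1 null line 6 of 51 members were higher (13.5% of all genes) and 12 lower (28.7%). AKAP1 is an OMM protein that binds RNA and protein kinase A. RAB8A (0.42 ± 0.09, adjusted p = 0.00711) was highest, followed by RAB1B, RAB4A, RAB9A and RAB1A between 0.36 and 0.37, and RAB40A (-1.25), RAB3B (-1.05), RAB2B (-0.87), RAB22A (-0.87) and RAB30 (-0.79) were lowest. With TMM scaling 11 were higher (20.3% of all genes) and 7 lower (20.4%); without the first or the second AKAP1 null lysate 4 or 3 members were called, all of them lower. LARP4 is an RNA-binding protein that AKAP1 has been proposed to recruit. In the LARP4 null line 10 members were higher (21.7% of all genes) and 21 lower (29.9%). The higher ones were led by RAB34 (0.94 ± 0.11, adjusted p = 0.000309, edgeR), RAB40C (0.75 ± 0.18, adjusted p = 0.00739, and 0.36 to 1.12 with 1 lysate left out) and RAB40B (0.59 ± 0.11, adjusted p = 0.00261). TMM scaling gave 11 (27.3%) and 19 (24.3%). RAB1B, RAB34, RAB4A, RAB8A and RAB9A were called higher in all 3 genotypes and 11 members lower in all 3, next to 8.94 and 21.9% of all genes. The AKAP1 null calls of these 5 were lost without either AKAP1 null lysate.

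Set against WT, the AKAP1 null line differed for 3 members: RAB34 was lower (1 of 51; 7.52% of all genes) and RAB39A and RAB8B were higher (2 of 51; 6.15%). The log2 ratios of RAB34 were 1.16 and 1.38 in WT and 0.23 and 0.44 in the null line, with pulldowns of 29.0 and 26.2 CPM over totals of 24.8 and 19.3 CPM in the latter. The lysates did not overlap, and the difference was -0.94 ± 0.16 (adjusted p = 0.00597), a 1.91-fold fall, while the RAB34 mRNA level in the total inputs differed by 0.10 ± 0.15 (adjusted p = 0.976). TMM scaling gave -1.11. The call was lost without the second WT lysate (-0.83), without the first AKAP1 null lysate (-0.83) and without the replicate block (adjusted p = 0.0556). RAB39A, which acts on autophagy and endosomes, had -0.91 and -1.05 in WT and -0.12 and -0.30 in the null line, a difference of 0.76 ± 0.16 (adjusted p = 0.0165). RAB8B, of recycling and ciliary transport, had 31.2 and 41.7 CPM in the WT totals and 16.7 and 20.8 CPM in the pulldowns, against 24.2 and 28.6 CPM and 21.6 and 20.4 CPM in the null line (difference 0.63 ± 0.15, adjusted p = 0.0298). For both genes the log2 ratios of the lysates did not overlap, but neither call survived leaving out any 1 of the 4 lysates (0.67 to 0.86 for RAB39A and 0.47 to 0.79 for RAB8B), and RAB8B was not called with TMM scaling (0.46). Lack of overlap was common in this contrast. Both AKAP1 null lysates lay above both WT lysates in 52.6% of all genes and below both in 22.0%. Among the members these shares were 45.1% and 13.7%. The median gene differed by 0.19 and the median member by 0.18, and with TMM scaling 276 of all genes were higher and 1400 lower. Of the carriers, RABAC1, a prenylated-RAB acceptor with membrane-spanning segments, had log2 ratios of 1.74 in WT and 0.60 in the null line (difference -1.14 ± 0.16, adjusted p = 0.00288), whereas CHM was higher (0.61). Of the GTPase-activating proteins TBC1D7 was lower (-1.04) and TBC1D23 higher (0.74).

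**Figure D4:**
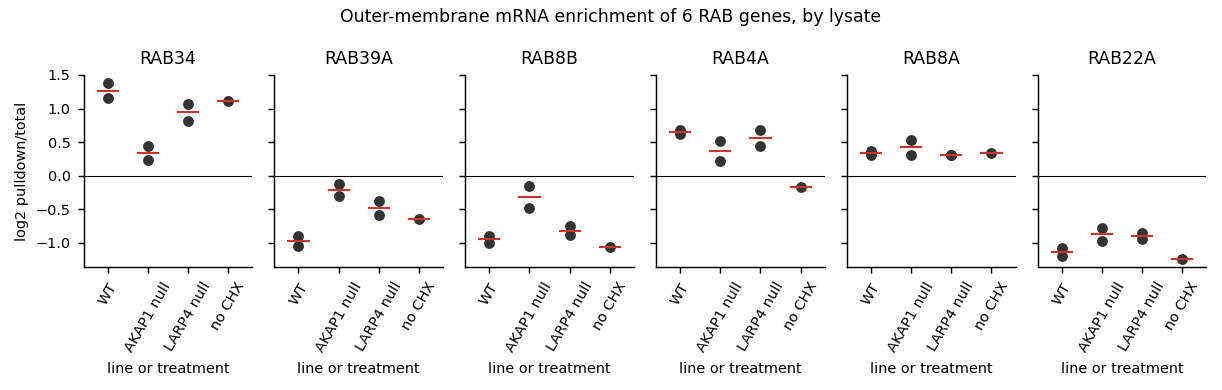
The log2 ratio of pulldown to total mRNA at the OMM (y axis) of 6 RAB genes is drawn by lysate (points, with a red bar for the group mean) in WT, AKAP1 null, LARP4 null and no CHX cells; no CHX has 1 lysate. RAB34 is lower and RAB39A and RAB8B are higher in the AKAP1 null lysates than in the WT lysates, and RAB4A is below 0 only without CHX.

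Between the LARP4 null line and WT 0 of 51 members were called by edgeR, as were 0% of all genes, with 1 member and 2305 genes at an unadjusted p under 0.05; DESeq2 called 0 members and 2 genes higher and 452 lower. RAB34 differed by -0.33 ± 0.16 (adjusted p = 0.309) and RAB39A by 0.50. Without the first LARP4 null lysate 4 members were called, 3 higher and 1 lower, against 32.4 and 7.98% of all genes, so the counts of members and of all genes both rest on that lysate.

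Without CHX, with 1 lysate, the order of the members was largely kept. The ratios of the 51 members went with those of WT (r = 0.91, rho = 0.90; 0.77 and 0.80 over all genes), their median was -0.33 against -0.20 and -0.22 in the WT lysates, and 18 lay above both WT lysates, 25 below both and 8 between them. Over all genes 59.6% lay above both and 26.6% below both, and the median was -0.13 against -0.29 and -0.32 in the WT lysates. The median member thus lay above the median gene in both WT lysates and below it without CHX. RAB34 (1.11), RAB40C (0.68), RAB20 (0.62) and RAB13 (0.60) were highest without CHX. RAB4A moved most: 89.4 CPM in the total and 79.7 CPM in the pulldown gave -0.17, against 0.62 and 0.68 in WT. RAB31 (-0.49), RAB27A (-0.43) and RAB39B (-0.35) followed in the distance below the WT mean, and RAB40A (0.48) and RAB6D (0.39), both with low counts, lay farthest above it. With a single lysate these differences have no replicate check and were not tested, and CHX and the labelling time cannot be told apart in them. The labels of the no CHX group name no guide RNA, so a difference of line from WT cannot be told apart either.

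The mRNA levels of the members in the total inputs were not called different from WT in either null line, 0 of 51 each. Of all genes, 0% were called in the AKAP1 null line and 0.014% in the LARP4 null line (505 and 517 genes at an unadjusted p under 0.05, with 3 members each; DESeq2 called 10 genes higher and 7 lower in the former, 14 and 15 in the latter, and 0 members). RAB27B, on few counts, had the highest value in both the AKAP1 and the LARP4 null line (0.95 ± 0.98 and 0.98 ± 0.98), RAB8B the lowest in the former (-0.47) and RAB26 the lowest in the latter (-0.74). A test that called 0 genes with AKAP1 itself at -2.15 (adjusted p = 0.243) does not show that levels were alike.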

How the data were processed

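The members, gene lists and comparisons were chosen with earlier results of these data known. For ribosome profiling the authors aligned footprints of 27 to 36 nt to GRCh38 with TopHat and counted them with plastid on Ensembl genes after masking repeated positions. The deposited files give these as estimated counts, which need not be whole and were rounded here for the tests, and as RPKM per kilobase of counted coding sequence. For RNA-seq the authors aligned reads to GRCh38 with STAR and counted them per gene with featureCounts, and the deposited counts were used as they are. A second deposited RNA-seq column, named FPKM, was treated as a score and not used, since it is a constant multiple of FPKM. Lines broken by a stray separator, 3 to 7 per RNA-seq file, were skipped. Entries of several overlapping genes stayed in library totals and were not tested, and the strand setting of the counting is not given in the sources used here.

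Pulldown was compared with total by edgeR 4.0.16 (quasi-likelihood test, R 4.3.3) with a term for each lysate, since total and pulldown of the same number come from 1 lysate; their deviations from the group means correlated by 0.58 to 0.88. Library totals set the scale. Genes needed 64 counts in both total inputs of a location, or on average over the 7 RNA-seq total inputs. Total inputs were compared with TMM scaling and no block. P-values were adjusted by Benjamini-Hochberg over all genes tested, and adjusted p below 0.05 was called. SE is the log2 value divided by the square root of F. Lysate values are log2 ratios of CPM with 0.5 counts added. Members with full statistics are at most the 5 largest rises and 5 largest falls called with the same sign in both lysates or all 4 pairings, and pathway genes at most 2 each way besides the prenylation and carrier genes; other members' values were picked after being seen. The fits were also run on simulated counts that held no lysate effect, which cannot check the pairing. Alternatives were TMM scaling, DESeq2 1.42.0, a minimum of 10 counts, no replicate block and leaving out each lysate; footprints over all exon positions were added after seeing the data. UTR lengths, coding ends and coordinates are from GENCODE 44. Some genes of the lists are not reported here.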

Additional observations from a re-analysis of the deposited data

Results flagged for a closer look

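The test of the difference between groups was passed by 28 combinations of a RAB gene and a contrast, and each was looked at again for that reason. Between ER and OMM footprints these were RAB9A (-1.03), RAB28 (-0.73), RAB11A (-0.72), RAB35 (-0.60), RAB12 (-0.57), RAB21 (-0.55), RAB7A (-0.48) and RAB10 (0.77), in log2 as ER minus OMM.

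Between ER and cytosol footprints they were RAB6A (-0.79), RAB23 (-0.76), RAB12 (-0.70), RAB11A (-0.70), RAB9A (-0.70), RAB11B (-0.70), RAB21 (-0.67), RAB14 (-0.65), RAB1A (-0.59), RAB5B (-0.58), RAB28 (-0.55), RAB35 (-0.42) and RAB10 (0.52). The median gene lay at -0.66 in this contrast, and the 12 lower ones lay between -0.15 and 0.23 with TMM scaling.

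Between OMM and cytosol footprints they were RAB6A (-0.90), RAB14 (-0.75), RAB1A (-0.73) and RAB4A (0.42). Between AKAP1 null and WT mRNA at the OMM they were RAB34 (-0.94), RAB8B (0.63) and RAB39A (0.76).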

How the results depend on the processing

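Of 932 values recomputed for the 137 calls of members, 570 kept their direction and side of the threshold, 335 kept their direction and lost their call, and 27 changed sign, all from below to above 0. At the ER these were, with TMM scaling, RAB36 (0.0082), RAB14 (0.0075), RAB12 (0.0303), RAB5B (0.0594), RAB33B (0.0938), RAB3D (0.1565), RAB3A (0.1944), RAB1A (0.2322), RAB31 (0.2819), RAB7A (0.2965) and RAB35 (0.3514), the last 2 then called higher, and with DESeq2 RAB5B (0.0239), RAB33B (0.0616), RAB3D (0.124), RAB3A (0.1624), RAB1A (0.1965), RAB31 (0.2397), RAB7A (0.2607) and RAB35 (0.3152). For ER minus cytosol they were, with TMM scaling and with DESeq2, RAB1A (0.0603 and 0.0004), RAB5B (0.0708 and 0.0132), RAB28 (0.0998 and 0.0369) and RAB35 (0.2276 and 0.1687). For counts of RAB genes called in either direction, TMM scaling gave 10 at the ER, 3 for ER minus OMM and 6 for ER minus cytosol; DESeq2 gave 6, 2 and 3 for these. Without the replicate block, that is without the term pairing total and pulldown of 1 lysate, the counts were 2 at the ER, 0 at the OMM, 0 for each of the 3 differences between locations, 19 in WT, 6 in the AKAP1 null line, 16 in the LARP4 null line and 0 for AKAP1 null minus WT. Between total inputs a replicate block gave 0 calls. Footprints over all exon positions, chosen after seeing the data, tested more members and gave 17 of 34 at the OMM, 2 of 35 in the cytosol, 22 of 34 for ER minus cytosol and 7 of 32 for OMM minus cytosol; of all genes 16.5, 3.58, 20.7 and 15.9% were then higher and 49.0, 6.84, 63.9 and 42.0% lower.

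Leaving out 1 lysate gave 10 to 20 calls at the ER (10 without the first ER lysate), 3 to 7 at the OMM (3 without the second), 1 to 1 in the cytosol, 1 to 4 for ER minus OMM, 8 to 15 for ER minus cytosol, 2 to 7 for OMM minus cytosol, 18 to 20 in WT, 3 to 4 in the AKAP1 null line, 30 to 34 in the LARP4 null line, 0 to 1 for AKAP1 null minus WT and 0 to 4 for LARP4 null minus WT (4 without the first LARP4 null lysate). A lone lysate is then assumed to vary like the other groups. The OMM pulldowns held 1025114 and 2506515 counts.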

Other observations

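The log2 ratio of RAB10 at the ER was 0.33 over coding positions, all of which were counted, and 0.06 over all exon positions, while that of RAB4A was 0.39 and 0.32. What the footprints outside the coding sequence are was not tested.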
